A study of Homo sapiens with 6 samples.

Results

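The locus described here is the 1 Mb of human chromosome 11 that holds ETS1 and FLI1, from 128.000 to 129.000 Mb of build hg19. Its members were all peaks of the 4 BRA ChIP-seq lists whose midpoint lies in this window. They numbered 44 of the 54994 peaks in the series. The R&D Systems antibody gave 9 of them in FLyA and 31 in FLyB, and the Santa Cruz antibody gave 1 in FLyA and 3 in FLyB. The window was chosen by its counts of R&D Systems peaks, many of which are found in FLyB and not in FLyA, so these counts are a description and were not tested.

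Cells of the established human embryonic stem cell line H9 were cultured for 36 h with FGF2 at 20 ng/ml and the PI3 kinase inhibitor LY294002 at 10 μM. Activin A at 100 ng/ml was added in FLyA medium, which yields endoderm progenitors, and BMP4 at 10 ng/ml in FLyB medium, which yields mesoderm progenitors. Chromatin bound by brachyury (BRA) was immunoprecipitated in each medium with an antibody from R&D Systems and, separately, with one from Santa Cruz. There was 1 library per medium and antibody, so no difference between the media was tested over replicates. A peak has a position and a fixed width of 400 bp but no height, which means that the data say where BRA was called and not how strongly.

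BRA is a T-box transcription factor that drives mesoderm formation in the primitive streak. ETS1 and FLI1 encode transcription factors of the ETS family, which share a DNA-binding domain and act in the development of blood and endothelial cells, derivatives of the mesoderm. The genes are neighbours and are transcribed away from each other. ETS1 runs from 128.329 to 128.457 Mb with its start at the right end, and FLI1 runs from 128.556 to 128.683 Mb with its start at the left end. Both spans are given to the nearest kb, the stretch between them is 99 kb long, and alternative starts inside the genes were not considered.

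ETS1 had BRA peaks in both media, whereas FLI1 had R&D Systems peaks in FLyB and none in FLyA. Within 50 kb of ETS1, a distance the study also used to assign peaks to genes, lay 15 FLyB and 6 FLyA peaks of the R&D Systems antibody. Within 50 kb of FLI1 lay 3 FLyB peaks and 0 FLyA peaks of this antibody. The Santa Cruz antibody gave 2 FLyB peaks and 0 FLyA peaks near ETS1. Near FLI1 it gave 0 FLyB peaks and 1 FLyA peak, which lay 34.1 kb past the right end of the gene. The counts near FLI1 are small. Over the whole R&D Systems FLyB list 63.9% of peaks overlapped no FLyA peak. Windows of 1 Mb with a peak in any list held 9.1 R&D Systems FLyA peaks on average, and FLI1 is 127 kb long. The window was chosen for its R&D Systems counts, so the contrast between the genes was not tested.

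**Figure D1:**
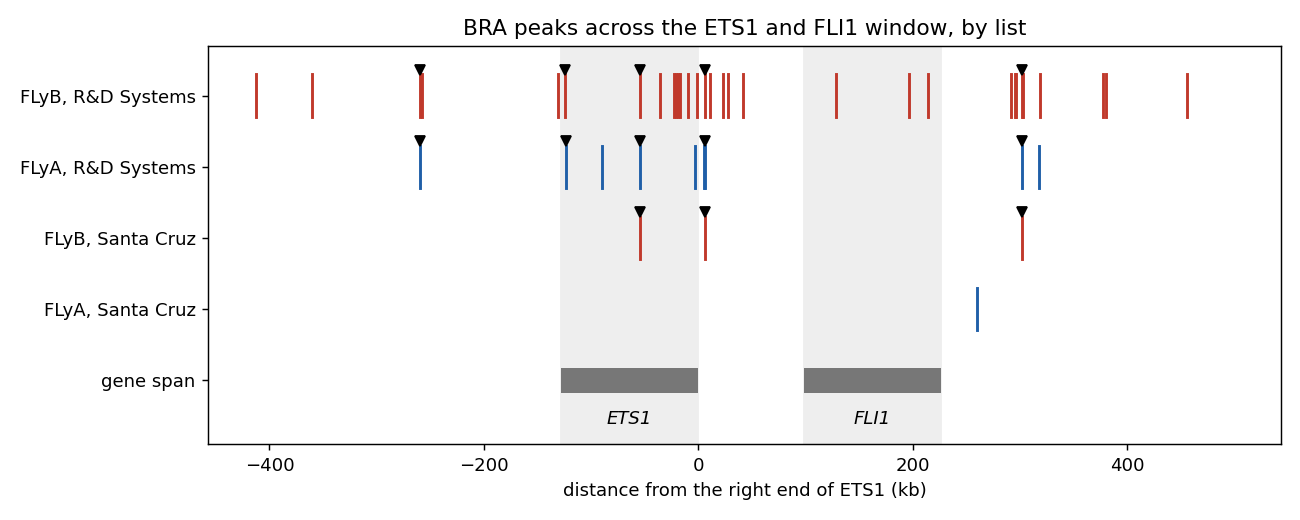
Map of the 44 peaks, with 1 row per list and the distance from the right end of ETS1 in kb on the horizontal axis. Each vertical line is a peak, grey bars are the gene spans, and triangles mark peaks at sites that the R&D Systems antibody found in both media. The FLyB peaks are densest over the right part of ETS1 and the stretch beyond it, and FLI1 holds 3 FLyB and 0 FLyA peaks of the R&D Systems antibody.

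Peaks that overlapped by at least 1 bp were joined, which gave 36 separate sites in the window. Of these, 26 were found in the R&D Systems FLyB list alone and 4 in the R&D Systems FLyA list alone. A further 2 were found in both R&D Systems lists, 3 in both R&D Systems lists and the Santa Cruz FLyB list, and 1 in the Santa Cruz FLyA list alone. No site was found in all 4 lists. Thus 31 of the 36 sites rested on a single list. Peaks without a partner were common throughout the series. Over the whole R&D Systems lists, 63.9% of FLyB peaks overlapped no FLyA peak and 67.0% of FLyA peaks overlapped no FLyB peak. Only 10.0% of those FLyB peaks and 3.02% of those FLyA peaks overlapped a Santa Cruz peak of the same medium. The share of single-list sites over the whole series was not computed.

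With the R&D Systems antibody, 26 of the 31 FLyB peaks met no peak of the FLyA list (83.9%, exact 95% interval 66.3 to 94.5%), against 63.9% over the whole FLyB list. Such peaks are called FLyB-only here, and FLyA-only peaks are those that overlapped no FLyB peak of this antibody. The FLyA-only peaks numbered 4 of 9 (44.4%, 13.7 to 78.8%), against 67.0% over the whole FLyA list. Because the window was picked for this contrast, nothing is read from these shares. The intervals cover counting error only and treat neighbouring peaks as independent.

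The 5 sites found in both media with the R&D Systems antibody were spread over the locus. The first lay to the left of ETS1, with the FLyB peak at chr11:128197183-128197582 and the midpoint of the FLyA peak 10 bp away. The next, at chr11:128332613-128333012, lay 3.81 kb inside the left end of ETS1, and here the midpoints were 344 bp apart and the peaks shared 56 bp. This overlap was the smallest of the 5, and the call of a shared site depends on the 1 bp rule.

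The third shared site was at chr11:128402570-128402969, within ETS1 and 54.2 kb from its right end, with midpoints 29 bp apart. The fourth, at chr11:128463185-128463584, lay between the genes, 6.38 kb beyond the right end of ETS1, with midpoints 47 bp apart. The fifth, at chr11:128758273-128758672, lay 75.5 kb past FLI1 with midpoints 16 bp apart. At 4 of the 5 sites the media thus placed BRA within 50 bp of the same position.

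The Santa Cruz lists took no part in the choice of the window. All 3 Santa Cruz FLyB peaks lay on FLyB peaks of the R&D Systems antibody (exact 95% interval 29.2 to 100%), against 79.0% over the whole Santa Cruz FLyB list. All 3 also lay on FLyA peaks of that antibody, against 43.1% over that list, and 41.5% of that list overlapped R&D Systems peaks of both media. They fell on the shared site within ETS1, the one between the genes and the one past FLI1. There the midpoints of the antibodies in FLyB were 21, 62 and 40 bp apart.

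The FLyB-only sites were not found with the second antibody. Among these 26 peaks, 0 overlapped a Santa Cruz FLyB peak (exact 95% interval 0 to 13.2%). Over the whole list 7.47% of FLyB-only peaks did so, and a share of that size lies within the interval and is not excluded by 26 peaks. Of the 5 FLyB peaks at shared sites, 3 overlapped a Santa Cruz FLyB peak (60.0%, 14.7 to 94.7%), against 14.6% of such peaks over the whole list. The same 3 sites can be counted from the 9 R&D Systems FLyA peaks. Of the 9, 3 overlapped a Santa Cruz FLyB peak (exact 95% interval 7.49 to 70.1%), against 5.01% over the whole FLyA list. A Santa Cruz FLyA peak was overlapped by 0 of the 9 (0 to 33.6%), against 3.02%. The shares of 3 of 5 and 3 of 9 rest on the same 3 Santa Cruz FLyB peaks. The peaks they are counted from belong to the R&D Systems lists that chose the window. No share of this paragraph was tested, and no enrichment is read from them.

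At the 5 shared sites the Santa Cruz antibody gave peaks in FLyB and none in FLyA. None of the 5 overlapped a Santa Cruz FLyA peak, and 6.27% of such peaks did so over the whole list. With 5 peaks the exact interval runs from 0 to 52.2%. Taken alone, the Santa Cruz antibody would therefore place 3 peaks in FLyB and none of them in FLyA, at positions where the R&D Systems antibody called BRA in both media. Over the whole Santa Cruz FLyB list, 91.7% of peaks overlapped no Santa Cruz FLyA peak, so such peaks are the rule in that list. The single Santa Cruz FLyA peak, chr11:128716893-128717292, overlapped no peak of another list. Over the whole Santa Cruz FLyA list, 31.9% of peaks met an R&D Systems FLyA peak, 25.2% met an R&D Systems FLyB peak and 89.9% met no Santa Cruz FLyB peak. The Santa Cruz lists are shorter throughout, with 2436 peaks in FLyA and 3007 in FLyB against 25864 and 23687 for the R&D Systems antibody. The study describes its Santa Cruz experiments as noisier and as having fewer unique reads. The read numbers themselves were not analysed here.

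The FLyB-only peaks were found in each of the 5 parts of the locus, and their density was highest over ETS1. This was not particular to them, as R&D Systems FLyA peaks were also densest there, at 3.125 per 100 kb. FLyA peaks stood at 2.02 per 100 kb between the genes and 0 in FLI1. To the left of ETS1 and the right of FLI1 they stood at 0.304 and 0.631 per 100 kb. The span of ETS1 held 9 FLyB peaks, of which 7 were FLyB-only, or 5.47 FLyB-only peaks per 100 kb. The stretch between the genes held 5 FLyB peaks with 4 FLyB-only, or 4.04 FLyB-only peaks per 100 kb. FLI1, a gene of nearly the same length as ETS1, held 3 FLyB peaks, all FLyB-only, or 2.36 per 100 kb. The 329 kb to the left of ETS1 held 5 FLyB peaks with 4 FLyB-only, or 1.22 per 100 kb. The 317 kb to the right of FLI1 held 9 with 8 FLyB-only, or 2.52 per 100 kb. Over the whole FLyB list 63.9% of peaks were FLyB-only, and with so few peaks per part the shares by part were not tested.

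**Figure D2:**
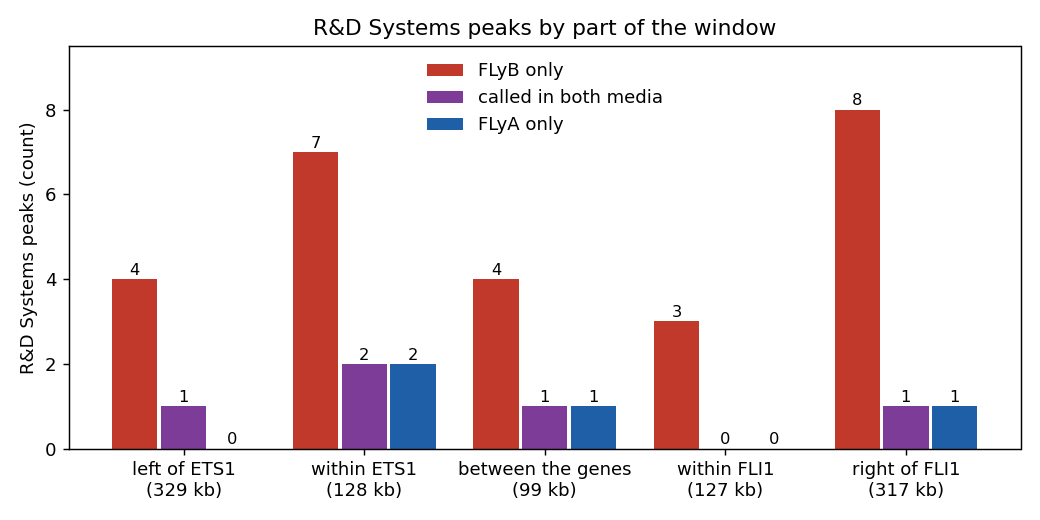
R&D Systems peaks in each part of the window, as counts on the vertical axis, with the length of the part under its name. Bars give FLyB-only peaks, FLyB peaks that overlap a FLyA peak, and FLyA-only peaks; FLyB-only peaks were the most numerous class in each of the 5 parts, from 3 within FLI1 to 8 on the right.

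Most of the ETS1 peaks lay towards the start of the gene. From chr11:128402570 to 128498590, 13 FLyB peaks followed each other at no more than 20 kb, over 95.6 kb between the first and the last midpoint. Of these, 11 were FLyB-only, against 63.9% of peaks over the whole FLyB list. In the whole R&D Systems FLyB list, 14 of 15560 such runs had as many peaks or more, and the median run was a single peak. With neighbours at most 50 kb apart the run was the same, and 93 of 11329 runs had as many peaks or more. The window was chosen by its R&D Systems counts, so the ranks of its runs are a description and were not tested. The 20 kb rule gave no run of more than 3 peaks in the FLyA list within the window. The run spans the right end of ETS1, with 8 of its peaks inside the gene and 5 beyond the end.

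The core of the run was tighter still. Between chr11:128434208 and 128468585, 8 FLyB peaks followed each other at no more than 10 kb, over 34.0 kb between the first and the last midpoint. In the whole list, 20 of 17899 runs made by this rule had as many peaks or more. The core contained close pairs. The peaks starting at 128434208 and 128435778 were 1570 bp apart between midpoints, and those starting at 128438248 and 128439292 were 1044 bp apart. All 4 were FLyB-only, and their nearest FLyA peaks lay 14.7 to 19.7 kb away.

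Near the start of ETS1, both media had peaks at different positions. The FLyB-only peak nearest to the right end of the gene, chr11:128455741-128456140, was 1.06 kb inside it. The nearest FLyA peak, chr11:128453952-128454351, was FLyA-only and lay 2.85 kb inside the gene, so the midpoints were 1789 bp apart. Beyond the end, a FLyA-only peak at chr11:128462312-128462711 stood 826 bp from the FLyA peak of the shared site. Around FLI1 the picture was sparser. The FLyB peak nearest to the left end of FLI1 was chr11:128585569-128585968, 29.8 kb inside the gene, and on the other side of that end the nearest was 57.6 kb away.

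The remaining FLyB peaks of FLI1, at chr11:128653010-128653409 and chr11:128670678-128671077, were 17.7 kb apart and 12.1 kb or more from the right end of the gene. The 3 FLI1 peaks lay 122, 105 and 87.6 kb from the nearest R&D Systems FLyA peak. The Santa Cruz FLyA peak was nearer to the latter pair, at 63.9 and 46.2 kb. The R&D Systems FLyA list had no peak over 295 kb, from the shared site next to ETS1 to the shared site past FLI1, and this gap takes in the whole of FLI1. It was the widest gap between neighbouring FLyA peaks within the window. A wider one crossed the left edge of the window, where the nearest FLyA peaks lay 323.4 kb outside and 197.4 kb inside. Gaps over the whole FLyA list were not computed, so nothing is read from the width of the gap at FLI1.

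To the right of FLI1, 6 FLyB peaks formed a second group over 26.4 kb, from chr11:128748746 to 128775534. Of the 6, 5 were FLyB-only, against 63.9% of peaks over the whole FLyB list. With neighbours at most 20 kb apart, 227 of 15560 runs in that list had as many peaks or more. The group held the closest neighbours of the locus, starting at 128752205 and 128752757, with midpoints 552 bp apart. The FLyA list had 2 peaks in this group, the shared one and a FLyA-only peak at chr11:128774503-128774902, which missed the FLyB peak beside it by a midpoint distance of 632 bp. In the order of protein-coding genes in RefSeq (assembly GRCh38.p14), FLI1 is followed by the potassium channel genes KCNJ1 and KCNJ5, then by TP53AIP1 and ARHGAP32. Their positions in hg19 were not used here, so the peaks of this group were not assigned to a gene. Beyond the group lay 3 more FLyB peaks, of which a pair was 2521 bp apart.

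The FLyB-only peaks differed widely in their distance to FLyA binding. The distance from a FLyB-only peak to the nearest R&D Systems FLyA peak ranged from 0.632 to 152.7 kb, with a median of 17.3 kb, against a median of 23.6 kb for all FLyB-only peaks of the list. It was 10 kb or less for 10 of the 26 (38.5%, exact 95% interval 20.2 to 59.4%), and 31.1% of all FLyB-only peaks were as close. The interval of the locus includes the value of the whole list. Of the 4 FLyA-only peaks, 3 lay within 10 kb of an R&D Systems FLyB peak (75.0%, 19.4 to 99.4%, against 23.7% of all FLyA-only peaks), and the exception was chr11:128367227-128367626 within ETS1, at 34.6 kb. The window was picked for its many FLyB peaks, which by itself shortens the distance from a FLyA peak to a FLyB peak. Neither share was tested.

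**Figure D3:**
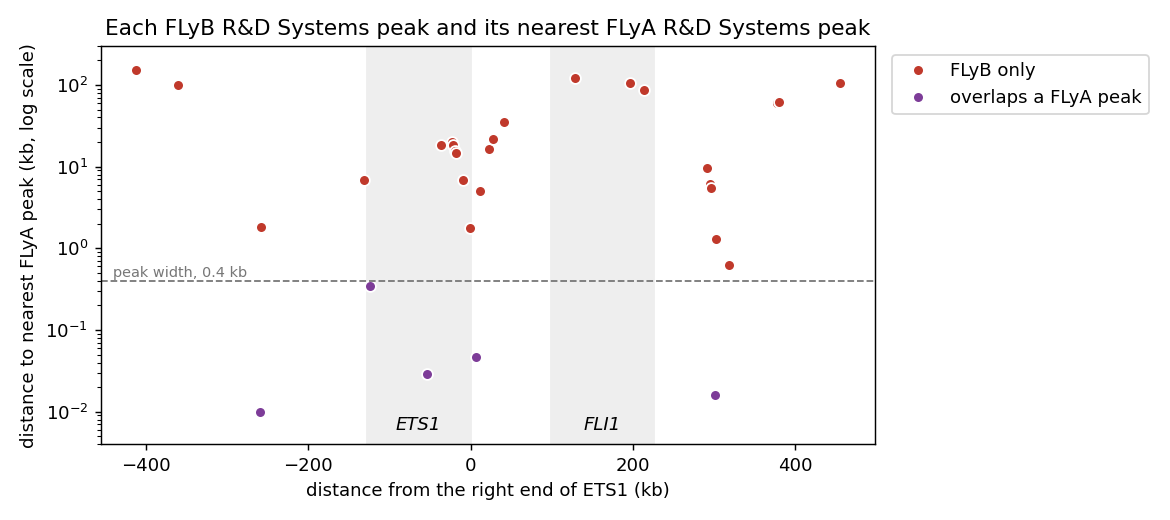
Each point is 1 of the 31 R&D Systems FLyB peaks, placed by its distance from the right end of ETS1 in kb and by the distance to its nearest R&D Systems FLyA peak in kb on a log axis. Grey bands are the genes and the dashed line is the peak width. The 5 peaks that overlap a FLyA peak lie under the line, and the 3 peaks in FLI1 lie at 87.6 to 122 kb.

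FLyB peaks were also close to each other. Of the 31, 21 had another FLyB peak within 10 kb (67.7%, against 40.6% over the whole list) and 10 had one within 2 kb (32.3% against 17.9%). The median distance to the nearest FLyB peak was 5.33 kb, and 17.0 kb over the whole list. For the 9 FLyA peaks the median distance to the nearest FLyA peak was 16.2 kb, and 22.7 kb over the whole list. A window picked for many peaks holds peaks that are close together, so these values describe the locus and were not tested.

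The locus was set among the 2843 windows of 1 Mb with a peak in any list. Because the R&D Systems counts chose the window, their ranks describe that choice and were not tested. Of the 2843 windows, 34 held more than 31 FLyB peaks of this antibody, and the median window held 7. In FLyA, 1139 windows held more than 9 peaks, and the median was 8. At the scale of 100 kb, the stretch from 128.4 to 128.5 Mb held 13 FLyB peaks and 4 FLyA peaks, and 6 of the 12271 stretches with a FLyB peak held more than 13. The Santa Cruz count of 3 FLyB peaks was reached or passed in 337 windows, and its count of 1 FLyA peak was the median.

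**Figure D4:**
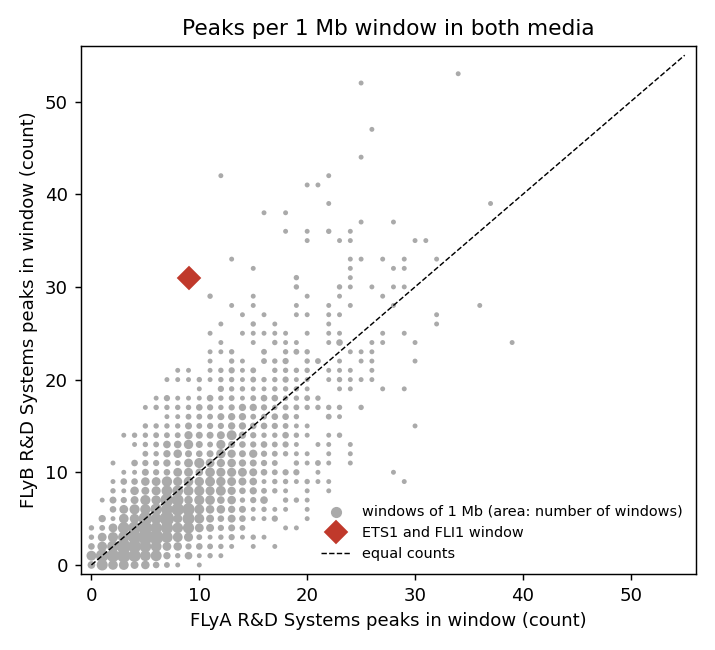
R&D Systems peaks per 1 Mb window, with the FLyA count on the horizontal and the FLyB count on the vertical axis. Grey points are the 2843 windows, with an area that grows with the number of windows at that position, and the diamond is the ETS1 and FLI1 window, at 9 FLyA and 31 FLyB peaks.

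The locus was compared with the 2 windows that have a larger excess of FLyB-only over FLyA-only peaks, on chromosome 16 from 86000001 to 87000000 and on chromosome 17 from 75000001 to 76000000. A Santa Cruz FLyB peak lay on 3 of the 36 FLyB-only peaks of the former (8.33%, exact 95% interval 1.75 to 22.5%) and on 5 of the 36 of the latter (13.9%, 4.67 to 29.5%). The exact interval of 0 to 13.2% for the 0 of 26 at ETS1 and FLI1 overlaps both of these intervals. The longest run of FLyB peaks at no more than 20 kb was 13 here, against 9 and 14 in those windows. Next in order came 3 windows of chromosome 17 with an excess of 21 peaks each, against 22 here, from 1 to 1000000, from 47000001 to 48000000 and from 63000001 to 64000000. In these, 1 of 24, 1 of 32 and 2 of 32 FLyB-only peaks carried a Santa Cruz FLyB peak (4.17, 3.12 and 6.25%), and the longest runs had 11, 9 and 20 peaks.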

How the data were processed

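The series holds BRA ChIP-seq from H9 cells in FLyA and FLyB media with each of 2 antibodies. No peak list of the 2 input DNA libraries was used here. Sequencing was on a Genome Analyzer II. The submitters' processing notes name Bowtie 0.12.7 and build hg19, and the methods name MACS as the peak caller. The authors deposited the start and end of each peak, called per library, with no height, ratio or p-value. A MACS threshold of 1e-12 stands in the Santa Cruz track lines; for the R&D Systems antibody it is not given in the sources used here. Which input served as control for which list is not given in the sources used here, so both antibodies of a medium may share 1. Duplicate handling is likewise not given. Depth is unknown.

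Peaks were assigned to the window by midpoint and compared with SciPy 1.17.1 and NumPy 2.4.6 under Python 3.11.15. Overlap counts were checked with bedtools 2.31.1 and the functions were tested on simulated data. Peaks sharing 1 bp or more were taken as shared. The 95% intervals of shares are exact (Clopper-Pearson). Positions count from 1. Gene spans came from the definition of the window. Figures were drawn with matplotlib 3.10.9. Named peaks were those found with both antibodies or in both media, those nearest to the gene ends, and FLyB-only peaks along the locus.

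A genome and annotation of build hg19 were not used here, so peak sequences, T-box and other motifs, and peaks near other ETS family genes were not analysed. The window, members and lists were chosen with earlier results of these data known. The rules on runs, and the windows shifted or limited to the genes for medium-specific peaks, were chosen after seeing the data.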

Additional observations from a re-analysis of the deposited data

How the results depend on the processing

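Of 54 alternative values computed for 24 results, 44 stayed within 1.5 times the reported count. Limited to ETS1 and FLI1 with 50 kb on either side, the window held 18 R&D Systems FLyB peaks, of which 15 were FLyB-only. Shifted by 0.5 Mb to the right, it held 19 FLyB peaks. With peaks at most 500 bp apart counted as shared, FLyA-only peaks fell from 4 to 2, and at most 2 kb apart to 1. The Santa Cruz lists alone gave 3 FLyB-only peaks and 1 FLyA-only peak. With 10 kb added to each gene, 0 FLyA peaks remained between the genes, since both lie within 10 kb of ETS1. With 10 kb in place of 50 kb around FLI1, 0 Santa Cruz FLyA peaks were near it. The longest FLyB run had 8 peaks with neighbours at most 10 kb apart. FLyB-only peaks outnumbered FLyA-only peaks under each of these rules on overlap and antibody. The window was chosen for this excess in the R&D Systems lists, so nothing is read from its persistence under the overlap rules. The 3 Santa Cruz FLyB peaks all lay on sites that the R&D Systems antibody found in both media. Over the whole Santa Cruz lists, 91.7% of FLyB and 89.9% of FLyA peaks overlapped no peak of the other medium. Paired within antibody, FLyB had 22 more peaks than FLyA with the R&D Systems antibody and 2 more with the Santa Cruz antibody; as the former chose the window, these 2 pairs were not tested. Leaving out an antibody gives the Santa Cruz values above or the reported R&D Systems values. Alternatives for motifs and for other ETS family genes were not run, as they need a genome or annotation of hg19. A peak missing from a list is not shown to be unbound, since depth and peak height are unknown.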

Other observations

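The neighbouring 1 Mb windows held fewer FLyB peaks than the locus. The window to the left of the locus, from 127000001 to 128000000, held 6 FLyB and 11 FLyA peaks of the R&D Systems antibody, of which 5 were FLyB-only and 10 FLyA-only. The window to the right, from 129000001 to 130000000, held 11 and 7, with 8 FLyB-only and 4 FLyA-only. Farther left, from 125000001 to 126000000, 37 FLyB peaks stood beside 25 FLyA peaks. That window held 9 Santa Cruz FLyB peaks, against 3 at ETS1 and FLI1.

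The edges of the window cut through no group of FLyB peaks. The outermost FLyB peaks of the R&D Systems antibody inside it lay 44.7 kb from the left edge and 87.4 kb from the right edge, and the nearest outside lay 87.8 kb and 122.7 kb away. The FLyA peaks of this antibody nearest to the edges inside the window were 197.4 and 225.3 kb from them, and those outside were 323.4 and 18.6 kb from them.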
